A study of Capra hircus with 2 samples.

Results

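The miR-17-92 and miR-106b-25 clusters were followed in goat endometrium by their mature miRNAs. Members were the known miRNA names whose number was that of miR-17, miR-18a, miR-19a, miR-19b, miR-20a, miR-20b, miR-92a, miR-106b, miR-93 or miR-25, whatever the species prefix or arm, with repeated names counted once. The rule found 14 of the 587 known names, which carried 12 distinct sequences from 6 hairpins. Of these names 12 belonged to the miR-17-92 cluster and 2 to the miR-106b-25 cluster. The expression of miR-19b, miR-20b, miR-93 and miR-25 was not analysed here.

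Endometrium came from 24-month-old Xinong Saanen dairy goats with synchronised estrus that had been mated naturally. The P library represents the pre-receptive endometrium of gestational day 5 and the R library the receptive endometrium of gestational day 15. Of 10 goats collected for each day, RNA of 9 was mixed into 3 pools, and 1 value per miRNA and library was deposited. There were thus 2 libraries and no replicates, so a test compares these libraries and not the phases. In pooled tissue, fewer cells of a type and less RNA per cell cannot be told apart. The 12 member sequences were a small part of the known miRNA reads. In R they had 4989 of 1904242 such reads, or 0.262% (95% exact interval 0.255% to 0.269%). For P it was 3445 of 4046632, or 0.0851% (0.0823% to 0.0880%). Of the clean reads they made up 0.118% in R and 0.0640% in P, so the size of this difference depends on the scaling.

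Each cluster is transcribed as a single primary RNA that is cut into several hairpins, and each hairpin can give a mature miRNA from its 5p and its 3p arm. The miR-17-92 transcript is activated by MYC and is known for sustaining proliferation and cell survival. The miR-106b-25 hairpins lie in an intron of MCM7, a DNA replication gene. A miRNA recognises its targets mainly by its seed, so members of one cluster fall into different seed groups while members of both clusters share a seed. CDKN1A is a known target of the miR-17 seed and ITGA5 of miR-92a. In the RefSeq gene table of goat assembly ARS1.2, MIR17, MIR18A, MIR19A, MIR20A, MIR19B and MIR92A lay side by side with 0 other genes between them. MIR106B, MIR93 and MIR25 were likewise adjacent and lay inside MCM7.

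The sequences of the main arms define the 4 seed groups compared below, and those of related names show which of them could be confused with a member. Each is written 5′ to 3′ as the tables list it, with the seed (bases 2 to 8) in capitals. The first 3 share the miR-17 seed. miR-18a-5p differs from it within the seed, and miR-19a-3p and miR-92a-3p have seeds of their own.
miR-17-5p: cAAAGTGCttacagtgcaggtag
miR-20a-5p: tAAAGTGCttatagtgcaggtagt
miR-106b-5p: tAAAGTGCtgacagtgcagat
miR-18a-5p: tAAGGTGCatctagtgcagat
miR-19a-3p: tGTGCAAAtctatgcaaaactgt
miR-92a-3p: tATTGCACttgtcccggcctgttt
miR-106b-3p: cCGCACTGtgggtacttgct
miR-92: tATTGCACttgtcccggcctgtaa
miR-92b: tATTGCACtcgtcccggcctcc
miR-32-5p: tATTGCACattactaagttgc
miR-106a: tCAAAGTGcttacagtgcaggt
miR-92a-3p and the name miR-92 were identical over their first 22 bases. The listed miR-106a form carried 1 base more at its 5′ end, so that its bases 2 to 22 equalled bases 1 to 21 of miR-17-5p and its own bases 2 to 8 were not the miR-17 seed. Among 621 predicted candidates, 0 carried a member seed.

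Values are given as normalized expression (NE), the reads of a miRNA divided by a size factor of its library. Here 1 read was worth 0.8599 NE in R and 1.163 NE in P. Ratios are R to P with 95% exact (Clopper-Pearson) intervals, which cover counting error at most. They treat reads as independent, although copies made by PCR were counted as separate reads. Variation between goats, pools or library preparations is not in them. A name was called when Fisher's exact test of its reads against the clean reads gave P under 0.05 and its log2 ratio of NE lay beyond 1 in either direction. The 2 conditions use different scales. Every log2 ratio is 0.78 higher on the clean reads than on NE, so the test is passed more easily upward than downward. Its P-values do not refer to the NE ratios printed beside them.

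The members did not move together. miR-17-5p, miR-20a-5p, miR-18a-5p and miR-106b-5p had more NE in R, whereas miR-19a-3p, miR-92a-3p and miR-106b-3p had less. By sequence, 9 of 12 were higher in R and 3 lower on the NE scale. The interval lay above 0 for 5 sequences, below 0 for 3 and included 0 for 4. All 14 names passed the filter on low values, and 1 was called up and 0 were called down. Over all 438 tested known names 19.2% were called up (84 names) and 8.45% down (37 names), so these counts do not set the members apart. By the fold alone 2 members lay above and 1 below the limits, against 22.8% and 16.4% of the tested names. The median log2 ratio was 0.62 over the 14 member names and 0.03 over the tested names, whose quartiles were -0.65 and 0.91.

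**Figure D1:**
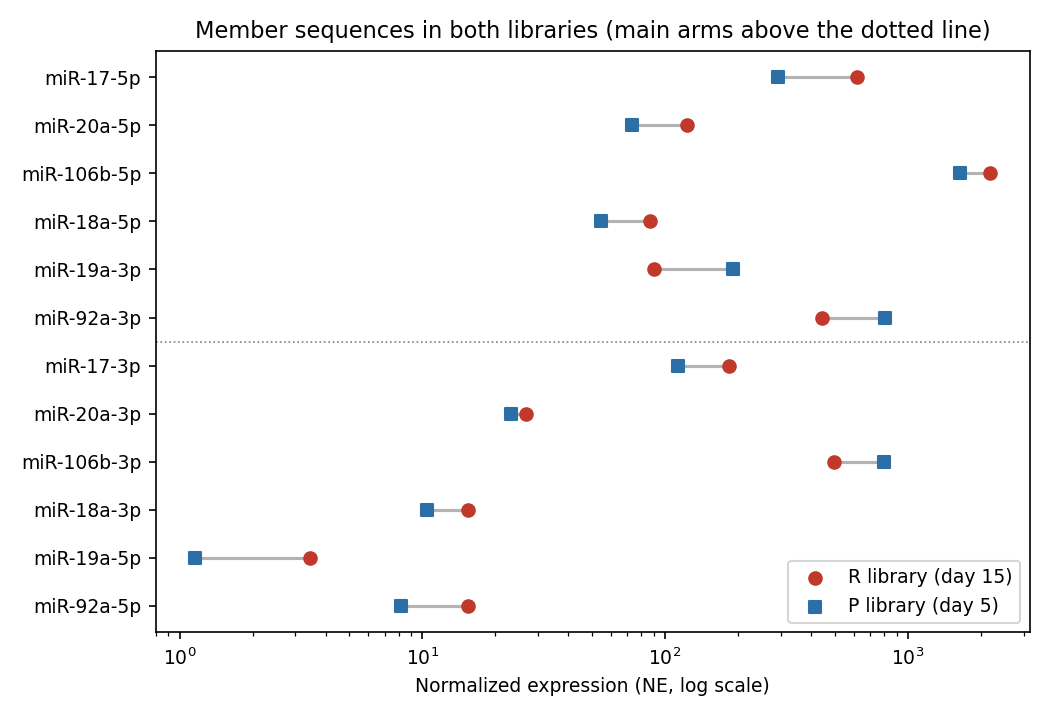
NE (log scale) of the 12 member sequences in the R library (red circles) and the P library (blue squares), with equal sequences summed and the main arms above the dotted line. miR-106b-5p was the most abundant member in both libraries, and miR-19a-3p, miR-92a-3p and miR-106b-3p lay to the left in R on this scale. Scaled to the known reads, all 12 were higher in R, as were most of the tested known names.

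The direction of the lower members depended on the scaling between the libraries. Relative to NE, scaling to the clean reads added 0.78 to every log2 ratio and scaling to the known reads added 1.52, which moved the median of the tested names to 0.81 and 1.55. Scaled to the clean reads, 10 of the 12 sequences were higher in R. Of the 14 names 8, with 7 distinct sequences, were called up and 0 down, against 36.1% and 4.34% of the tested names (158 and 19 names). Scaled to the known reads, 12 of 12 sequences were higher, with the interval above 0 for 11 of them. Most of the tested names were higher as well, since their median was 1.55. Here 8 member names, again with 7 distinct sequences, were called up and 0 down, against 47.9% and 2.28% (210 and 10 names). Fisher's exact test stayed against the clean reads under each scaling, and 8 members passed it upward, so no scaling could call more than these. Ratios of members within a library do not depend on this choice, and they are given for each comparison below.

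In the miR-17 seed group, the sequences of which repress cell cycle inhibitors among other genes, all 3 measured sequences had more NE in R. miR-17-5p had 620.0 NE in R and 293 NE in P, from 721 and 252 reads. Its log2 ratio was 1.08 (0.87 to 1.29) and it was the member called up (P = 1.01e-80, Fisher's exact test). The interval reached below 2-fold, so the size of the change was not resolved from the limit. miR-20a-5p, from the same primary transcript, was listed under 2 names of equal sequence that shared its reads equally, and together they had 123 NE in R and 73.3 NE in P. Its log2 ratio was 0.75 (0.31 to 1.20). miR-106b-5p had 2183 NE in R and 1636 NE in P, from 2539 and 1407 reads. It ranked 53 among all known names in R and 57 in P, and its log2 ratio of 0.42 (0.32 to 0.51) was the smallest of the 3. Summed, the group had 2926 NE in R and 2003 NE in P, a log2 ratio of 0.55 (0.46 to 0.63). All 3 sequences had the higher value in R under every scaling used.

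miR-18a-5p, whose seed differs from the miR-17 seed by a single base, had 86.8 NE in R and 54.7 NE in P. Its log2 ratio was 0.67 (0.16 to 1.20), close to those of the miR-17 seed group. Its reads numbered 101 and 47, and it was not called on the NE scale.

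miR-19a-3p went the other way on the NE scale. It had 90.3 NE in R and 191 NE in P, from 105 and 164 reads, with a log2 ratio of -1.08 (-1.45 to -0.72). Fisher's exact test against the clean reads gave P = 0.110, so it was not called although its ratio lay beyond the fold limit. Scaled to the clean reads its log2 ratio was -0.30, and scaled to the known reads it was 0.44. With the expected share of R taken from the NE scale instead, an exact binomial test returned P = 1.46e-09.

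miR-92a-3p, which restrains angiogenesis in endothelial cells, had 443 NE in R and 803 NE in P. Its log2 ratio was -0.86 (-1.02 to -0.69), and Fisher's exact test gave P = 0.400. With the clean reads its log2 ratio was -0.0735 (-0.24 to 0.09), and with the known reads it turned to 0.67. Its values were fractions of a read, as it shared reads with other names.

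**Figure D2:**
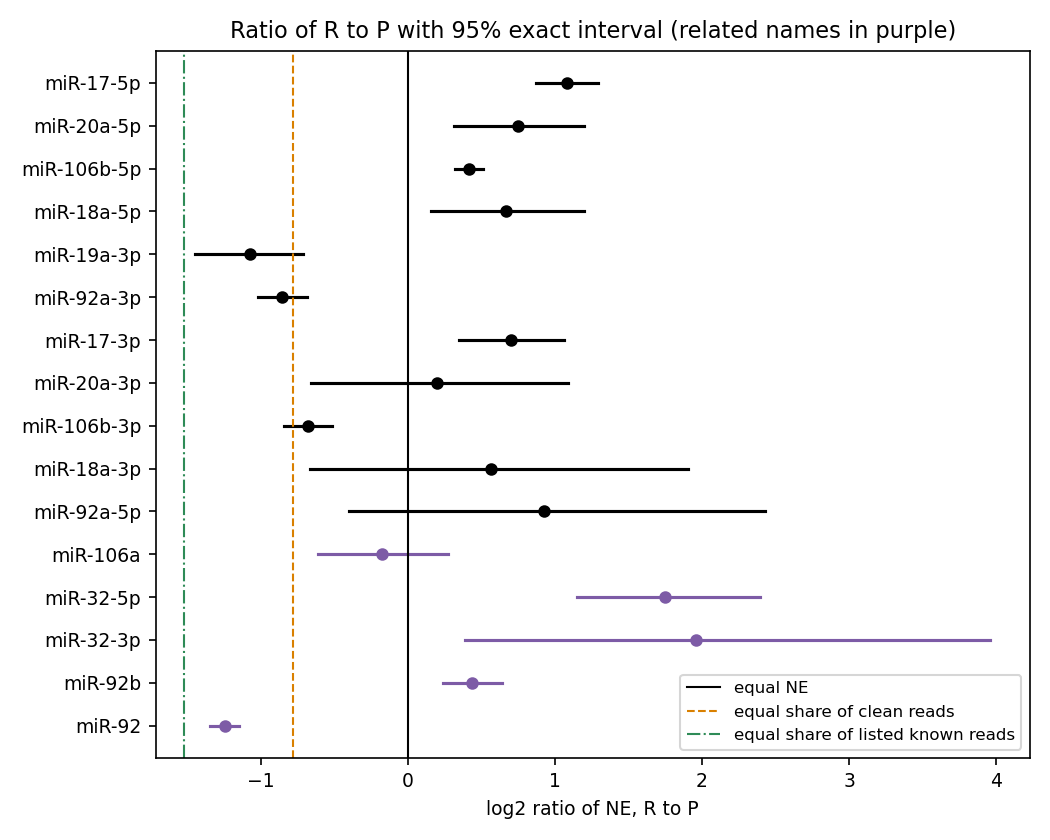
Log2 ratio of NE, R to P, for 11 member sequences (black) and 5 related names (purple), as points with 95% exact intervals; miR-19a-5p, with 4 and 1 reads, is left out. The solid line marks equal NE, the dashed line equal shares of the clean reads and the dash-dotted line equal shares of the known reads. miR-19a-3p (-1.08) and miR-92a-3p (-0.86) lie left of the solid line and right of the dash-dotted line, where their direction turns.

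Compared within the libraries, the seed groups as measured separated into a pair that gained and a pair that lost in relation to each other. Only the miR-17 seed group held more than 1 sequence. The miR-18, miR-19 and miR-92 seed groups stood for miR-18a-5p, miR-19a-3p and miR-92a-3p alone, and other names with the miR-92 seed are given below. Reads of the miR-17 seed group were 32.4 times those of the miR-19 seed group in R and 10.5 times in P, an odds ratio of 3.09 (95% exact conditional interval 2.38 to 4.01). Against the miR-92 seed group they were 6.60 times as many in R and 2.49 times in P, an odds ratio of 2.64 (2.32 to 3.01). The miR-18 seed group differed likewise, with odds ratios of 3.35 (2.15 to 5.26) against miR-19 and 2.87 (1.97 to 4.23) against miR-92. No difference was detectable at this depth between the miR-17 and miR-18 seed groups (0.9196, 0.633 to 1.32) or between the miR-19 and miR-92 seed groups (0.856, 0.646 to 1.13).

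The sequences assigned by name to the miR-17-92 cluster were therefore present in different proportions in R and P. Whether all their reads came from its transcript was not tested. Shares are of the main-arm reads analysed for this cluster, which do not include miR-19b. miR-17-5p made up 45.5% of these reads in R, with a 95% exact interval from 43.0% to 47.9%, but 20.7% in P (18.5% to 23.1%). miR-92a-3p was 32.5% in R (30.2% to 34.9%) and 56.7% in P (53.9% to 59.5%). Which of the 2 led in R depended on the name miR-92, whose sequence equals that of miR-92a-3p over 22 bases. With its reads added to miR-92a-3p, a choice made after seeing the data, miR-92a-3p led in both libraries, at 63.0% in R and 85.0% in P. The share of miR-17-5p was then 24.9% in R and 7.18% in P. With miR-92 kept apart, the share of miR-19a-3p was 6.62% in R and 13.5% in P, and with it added 3.63% and 4.67%. miR-20a-5p held 9.02% and 5.18% (4.95% and 1.80% with it added), and miR-18a-5p held 6.37% and 3.87% (3.49% and 1.34%). Set against miR-17-5p, the odds ratio was 0.224 (0.167 to 0.300) for miR-19a-3p and 0.262 (0.217 to 0.315) for miR-92a-3p. The intervals included 1 for miR-20a-5p (0.794, 0.565 to 1.12) and for miR-18a-5p (0.751, 0.510 to 1.12).

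**Figure D3:**
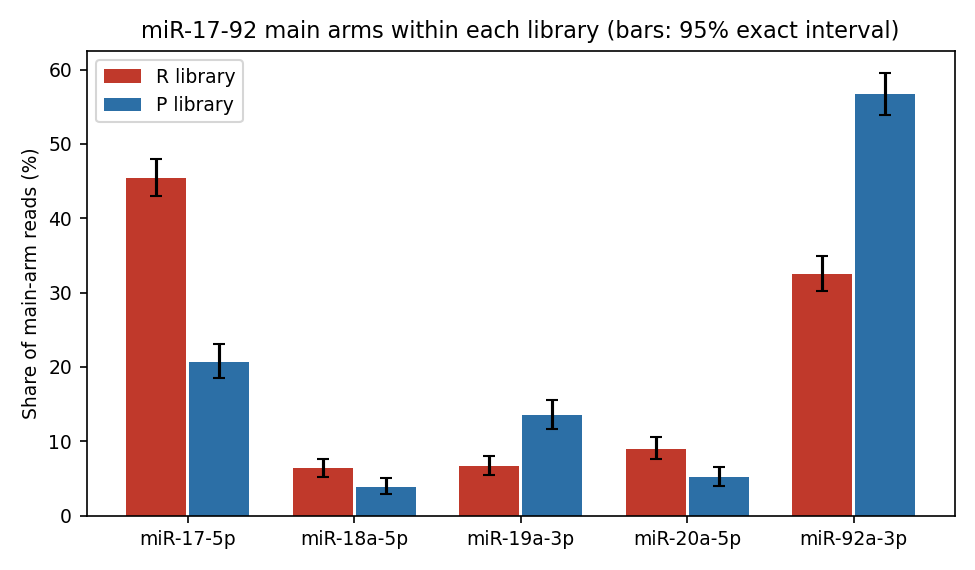
Share of each sequence among the main-arm reads analysed for the miR-17-92 cluster, without miR-19b. The R library is red and the P library blue, in percent, with 95% exact intervals. miR-17-5p was the tallest bar in R (45.5%) and miR-92a-3p in P (56.7%); with the reads of miR-92 added, miR-92a-3p would be the tallest in both (63.0% and 85.0%).

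Summed over the sequences measured, the 2 clusters did not differ detectably from each other within the libraries. For miR-106b-25 these were the 2 arms of miR-106b alone. The 10 sequences of miR-17-92 had 1608 NE in R and 1570.4 NE in P, a log2 ratio of 0.03 (-0.07 to 0.14), and those of miR-106b-25 had 2682 and 2436 NE, a log2 ratio of 0.14 (0.06 to 0.22). Their odds ratio was 0.930 (0.850 to 1.02). With the reads of the name miR-92 added to miR-92a-3p it was 0.585 (0.544 to 0.630), an alternative chosen after seeing the data. Within the miR-17 seed group the clusters did differ. Reads of miR-17-5p and miR-20a-5p were 0.340 per read of miR-106b-5p in R and 0.224 in P, an odds ratio of 1.52 (1.31 to 1.76), so the miR-17-92 sequences with this seed gained more than that of miR-106b-25.

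The arms of a hairpin come from the same precursor, and for miR-106b they moved apart. miR-106b-3p had 498.7 NE in R and 800.1 NE in P, a log2 ratio of -0.68 (-0.84 to -0.52), beside the ratio of 0.42 for miR-106b-5p. With the clean reads the 3p arm was at 0.10 and with the known reads at 0.84. The 5p arm made up 81.4% of the reads of both arms in R, with a 95% exact interval from 80.0% to 82.8%, but 67.2% in P (65.1% to 69.2%), an odds ratio of 2.14 (1.88 to 2.44). miR-92a, which is read mainly from its 3p arm, had 18 reads of the 5p arm in R and 7 in P, with an odds ratio of 3.44 (1.36 to 9.81). These 5p reads were those of the name mdo-miR-92a-1-5p, and whether the 3p reads came from the same hairpin was not tested.

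For the other hairpins the odds ratio of 5p to 3p included 1. The arm share of miR-17 was 77.2% 5p in R and 72.2% in P (odds ratio 1.30, 0.973 to 1.74). miR-17-3p, with 183 NE in R and 113 NE in P, had a log2 ratio of 0.70 (0.35 to 1.06). The 5p share of miR-20a was 82.2% in R and 75.9% in P (1.46, 0.730 to 2.88). That of miR-18a was 84.9% and 83.9% (1.07, 0.394 to 2.75). The minor arms of these hairpins had few reads: miR-20a-3p had 31 and 20, miR-18a-3p had 18 and 9, and miR-19a-5p had 4 and 1. Their intervals of the log2 ratio included 0, as did that of miR-92a-5p (0.93, -0.40 to 2.43). For miR-19a the odds ratio of the arms was 6.21 with an interval of 0.604 to 310, which is too wide to compare the libraries.

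**Figure D4:**
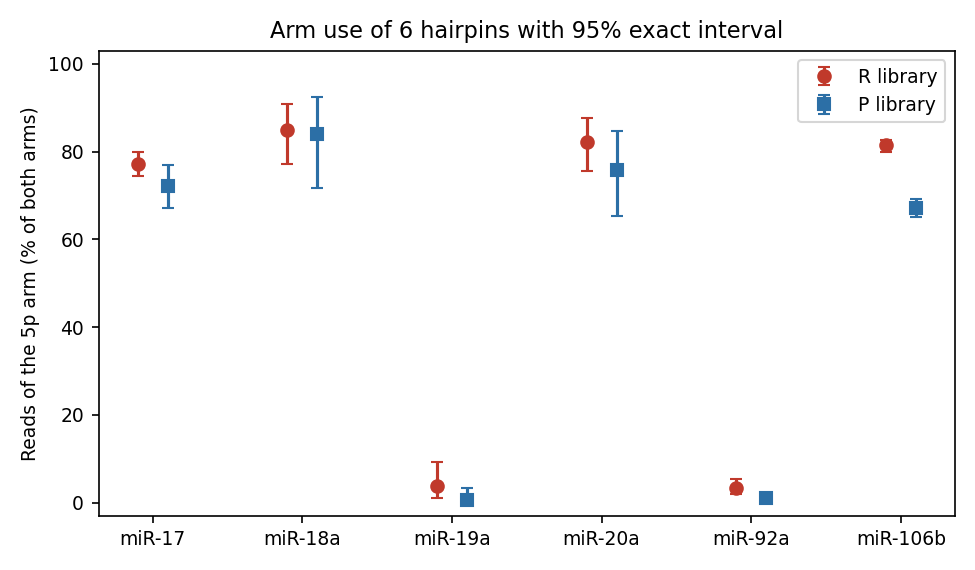
Reads of the 5p arm as a percentage of the reads of both arms for 6 hairpins, in the R library (red circles) and the P library (blue squares), with 95% exact intervals. The intervals of miR-106b are apart (81.4% in R and 67.2% in P), and those of the other 5 hairpins overlap.

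Related names outside the rule were 8, of which 5 reached 10 reads in a library. The name miR-92, identical to miR-92a-3p in its first 22 bases, had 1122 NE in R and 2666 NE in P. It was called down with a log2 ratio of -1.25 (-1.35 to -1.15; P = 5.01e-21, Fisher's exact test), and scaled to the known reads the ratio was 0.27. Adding its reads to miR-92a-3p gave a log2 ratio of -1.15 (-1.23 to -1.06), and miR-92a-3p would then be called down (P = 8.86e-18, Fisher's exact test). The miR-106a form had 83.4 NE in R and 94.2 NE in P, a log2 ratio of -0.18 (-0.62 to 0.27). If its reads were counted with miR-17-5p, the log2 ratio of the latter would be 0.86 (0.68 to 1.05), and miR-17-5p would no longer be called.

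Not every miRNA with the miR-92 seed was lower in R. miR-92b had 504 NE in R and 372.1 NE in P, a log2 ratio of 0.44 (0.24 to 0.64). miR-32-5p, with the same seed and a gene of its own, had 109 NE in R and 32.6 NE in P. It was called up with a log2 ratio of 1.75 (1.15 to 2.39; P = 4.27e-22, Fisher's exact test). Its other arm, miR-32-3p, was called up as well (1.96, 0.39 to 3.96), from 21 and 4 reads. With these same-seed names added, the miR-92 seed group had a log2 ratio of -0.83 (-0.91 to -0.76), since miR-92 held most of the reads.

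The authors' predicted targets, each named by 2 programs, were listed for miRNAs that the authors had called different, among them 2 members. One of these, miR-19a-3p, was called lower in R by the authors and was not called here. miR-17-5p had 596 targets and miR-19a had 539, out of 7608 target numbers that are not paired with gene symbols here. The lists of miR-17-5p and miR-19a had 104 targets in common, 17.4% of the former and 19.3% of the latter. Over all other lists, the median share of the miR-17-5p list was 14.3% and that of the miR-19a list was 15.0%. The miR-92 list had 349 targets, of which 42 were shared with miR-17-5p (12.0% of the miR-92 list and 7.05% of the other). It shared 59 with miR-19a, or 16.9% and 10.9%, and 13 targets were common to miR-17-5p, miR-19a and miR-92. By contrast miR-92 and miR-32-5p, which carry the same seed, had 288 targets in common, 82.5% of the former and 90.9% of the latter.

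The 3 lists that held the largest share of the miR-17-5p targets were those of hsa-miR-153-5p_L+1_2ss15G-16TC (28.7%), PC-3p-215602_2 (28.5%) and bta-miR-15b (27.9%). These were long lists of 1106, 1044 and 1331 targets, of which the shared ones were 15.5%, 16.3% and 12.5%. Of the targets, 4 of miR-17-5p and 3 of miR-19a stood in no other list. These are predictions, and no target was measured.

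**Figure D5:**
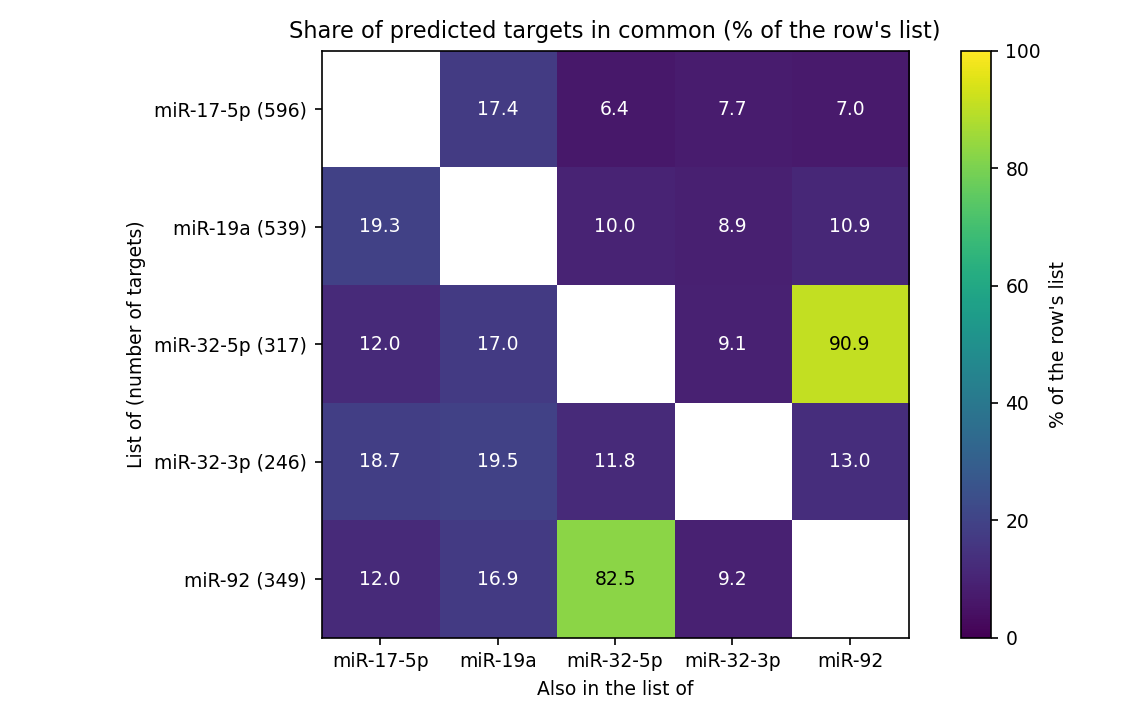
Share of the predicted targets of the miRNA in each row that are also listed for the miRNA in each column, in percent, with the number of targets in parentheses. miR-32-5p and miR-92, which share a seed, have 90.9% and 82.5% of their lists in common, whereas miR-17-5p and miR-19a have 17.4% and 19.3%.

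In the authors' conservation table of 23 species, a precursor of miR-17 was listed under 11 species, as was one of miR-92a. Those of miR-19b were listed under 15, of miR-19a under 10, of miR-106b under 9, of miR-20a under 7, of miR-18a under 6 and of miR-20b under 3. The counts are matches by name and carry no comparison between the libraries.

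Markers of cell types are given on the NE scale unless stated otherwise. Epithelial names were sought for the miR-200 family, miR-141, miR-429, miR-203, miR-205 and miR-375, and 7 of the 8 numbers were found. Of 10 tested epithelial names 8 were called up and 0 down. All 11 names, tested or not, had 34866 NE in R and 6726 NE in P in sum. The most abundant was hsa-miR-141-3p_R-1, at 28337 and 5791 NE, and mmu-miR-203-5p_1ss11GA was at 0 in P. Striated muscle names (miR-1, miR-133, miR-208a and miR-499a) had 211 NE in R and 3796 NE in P, with 4 of 6 called down, oar-miR-133_L+1 the most abundant (144.9 and 3558 NE) and cfa-miR-208a_R-1 at 0 in R. Names of smooth muscle and stroma summed to 389750 NE in R and 1976680 NE in P, of which aja-miR-143_1ss22GT made up 289634 and 1866274 NE, and 4 of 11 were called down. The difference in this sum came from that name: the median log2 ratio of the 11 names was -0.24, and without it the rest had 100115 NE in R and 110406 NE in P.

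Leukocyte names were sought for miR-142, miR-223, miR-150, miR-155, miR-146a and miR-146b, and 4 of the 6 numbers were found. They summed to 7811 NE in R and 5218 NE in P. Of 4 tested names 2 were called up, and these were the 2 arms of miR-142. The most abundant was cgr-miR-142-5p_L-2R+1 (5689 and 2524 NE), and the rest had 2122 and 2694 NE. Both hsa-miR-155-3p_2ss4CN10AG and oan-miR-223-3p_1ss22AT were at 0 in P. Red cell names summed to 6107 and 9425 NE with 0 of 6 called, led by cgr-miR-486-5p (5052 and 8073 NE). The endothelial miR-126 names summed to 32841 NE in R and 21287 NE in P with 0 of 4 called, led by hsa-miR-126-5p (23369 and 14955 NE). Scaled to the known reads, the log2 ratio of the sums was 3.90 for epithelium (higher in R, as on the NE scale). It was -2.65 for striated muscle (lower in R, as on the NE scale), but -0.33 without oar-miR-133_L+1. It was -0.82 for smooth muscle and stroma (lower in R), but 1.38 (higher in R) without aja-miR-143_1ss22GT. It was 2.11 for leukocytes and 2.15 for endothelium (both higher in R). That of red cells turned, from -0.63 on the NE scale to 0.90. The part of these cell types in the ratios of the cluster members was not tested.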

How the data were processed

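The authors sequenced TruSeq small RNA libraries (1 for R, 1 for P) on a HiSeq2500 with 36-base reads, which by the paper's account was done 3 times, and, with ACGT101-miR, removed adapters, junk, common RNA families and repeats, and matched reads to miRBase 20.0. The deposited signal of each miRNA (NE) is its reads divided by a size factor. The paper's methods instead define NE as a fixed multiple of the share of clean reads, which the deposited values do not follow; scaling to the clean reads corresponds to that definition. Reads shared by several names are divided among them. In R 75.0% and in P 80.3% of values above 0 were whole reads (within 0.01 read), so reads were rounded for Fisher's exact test (two-sided) against 4233874 clean reads in R and 5386427 in P. Names above 0 in both libraries with at least 1 NE in one were tested. Names without an arm were taken as the main arm. Targets, listed by the authors with TargetScan 5.0 and miRanda 3.3a, were read by their gene numbers, of which 0 matched RefSeq gene IDs. The authors' fold changes and P-values were not used, nor 2 columns of candidate values whose library labels conflict between tables. Named were all members, related names with at least 10 reads and the 3 target lists most alike. Marker lists came from general knowledge. Members and lists were chosen with earlier results of these data known. Alternatives were other scalings, tests, filters, a pseudocount of 1 NE, candidates added, distinct sequences and merged names, of which the merged names were chosen after seeing the data. The tests were tried on simulated data. Scripts ran in Python 3.11.15 with scipy 1.17.1 for tests, matplotlib 3.10.9 for figures, and pandas 2.3.3 beside numpy 2.4.6 for tables.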

Additional observations from a re-analysis of the deposited data

How the results depend on the processing

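The number of members called up was 1 in the reported setting. It was 8 when reads were scaled to the clean reads, 8 when scaled to the known reads and 8 with the P-value alone, and 0 when the exact interval had to lie wholly beyond 2-fold. Of the 438 tested known names, 84 were called up in the reported setting. In the other settings, in that order, 158, 210, 170 and 41 were called up. With the reads of miR-106a added to miR-17-5p, an alternative chosen after seeing the data like the merging of miR-92, the number of members called up was 0. The number of members called down was 0, and it was 1 when an exact binomial test followed NE (miR-19a-3p) and 1 with the reads of miR-92 added to miR-92a-3p. Of the tested names 37 were called down in the reported setting and 49 by the binomial test. Setting the median of tested names to 0, adjusting P-values over the tested names, with or without candidates, other filters and counting by sequence left both counts as they were. Scaled to the clean and to the known reads, the log2 ratio was 1.33 and 2.07 for the miR-17 seed group, 1.45 and 2.19 for miR-18, -0.30 and 0.44 for miR-19, and -0.0735 and 0.67 for miR-92. The ratio of age-miR-19a_1ss23AT was 0.44 and that of mdo-miR-92a-3p_R+2 was 0.67 with the known reads, and that of hsa-miR-106b-3p_R-2 was 0.10 and 0.84. These shifts follow from the scaling itself. Adding miR-92 moved the miR-92 seed group to -1.15, the odds ratio of the miR-17 to the miR-92 seed group to 3.24, that of miR-19 to miR-92 to 1.05 (0.808 to 1.36) and that of the clusters summed to 0.585. With it the main-arm shares of miR-17-92 in R and P were 24.9% and 7.18% for miR-17-5p, 3.49% and 1.34% for miR-18a-5p, 3.63% and 4.67% for miR-19a-3p, 4.95% and 1.80% for miR-20a-5p, and 63.0% and 85.0% for miR-92a-3p. A pseudocount of 1 NE changed no direction or call of the 14 names. No replicate could be left out, and no paired analysis was possible because each group has 1 library. Sequences with few reads (miR-18a-3p, miR-19a-5p, miR-20a-3p, miR-92a-5p) limit the arm comparisons.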
